A study of Mus musculus with 41 samples.

Results

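KO3 is a line of E14 mouse embryonic stem cells labelled as genetically depleted for the orphan nuclear receptor Esrrb. The change in its RNA over the later days of its exit from naive pluripotency was taken as the 2 KO3 libraries from day 5 of AloXR culture against the 4 KO3 libraries from day 1, 6 of the 41 libraries in the series. The 2 KO3 libraries from day 3 stand between them. Cells were kept in 2iL (the GSK3 inhibitor CHIR99021 and the MEK inhibitor PD0325901 with LIF, in N2B27 on gelatin), passed through 1 day of N2B27 alone, and were then held on fibronectin in AloXR (activin A with XAV and BMS), with a split every other day. Another line labelled as depleted, KO2, and E14 cells labelled Esrrb WT went through the same media, with 4 libraries at day 5 and 4 at day 1 each. QuantSeq 3′ mRNA sequencing, which counts tags from the 3′ ends of polyadenylated RNA, was used throughout. KO3 is a single line, the labels do not say which part of Esrrb was removed, and separate cultures are not stated for the libraries of a day. The p-values therefore measure the spread between libraries, which may be technical.

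Naive embryonic stem cells resemble the epiblast of the blastocyst before implantation. Esrrb is a transcription factor of their network together with Klf, Tfcp2l1 and Nanog, and it acts downstream of GSK3 inhibition. When the inhibitors are withdrawn, cells lose this network, gain de novo DNA methylation and pass through a formative state, marked by Otx2, Pou3f1 and Fgf5, before they can respond to germ layer signals. Activin A with inhibitors of tankyrase and of retinoic acid receptors is used to hold cells in that formative state.

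The 8 KO3 libraries of AloXR held 4110394 to 4863166 assigned reads and 18607 to 20161 detected genes each, and a count of 0 allowed up to 0.617 to 0.730 CPM, that is reads scaled to a library total of 1000000 (3 reads, counting error only). Pearson correlations of log2(CPM + 1) across genes were 0.954 to 0.957 between day 5 and day 1 libraries and 0.985 to 0.990 within each day. The day 1 libraries stood apart as 2 pairs: libraries 1 and 2 differed from libraries 3 and 4 more than the members of either pair differed from each other (chi-square per degree of freedom 3.99 to 6.69 between the pairs, 1.73 and 3.03 within them). Of 8661 genes with at least 10 CPM, 9 had both libraries of a pair at least 2-fold above both of the other. H19 was among the genes split in this way (194 and 178 CPM in libraries 1 and 2, 441 and 454 CPM in libraries 3 and 4), as were Slc2a3 and Ccnd2. No 2 libraries agreed within sampling noise, so each was counted. The labels name no batch for the pairs. In bulk RNA, fewer cells of a type and less RNA per cell cannot be told apart.

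Transcripts assigned to Esrrb itself (ENSMUSG00000021255, chromosome 12) amounted to 1.69 and 0 CPM at day 5, against 41.35, 38.49, 26.14 and 29.36 CPM at day 1. All day 1 libraries lay above both day 5 libraries, and the change was −4.38 ± 0.33 (log2, ± SE of the fit; adjusted p = 3.88e-14, limma). Set beside the other lines, this level went against the label at day 1. The libraries labelled KO2 had 5.52, 4.83, 1.86 and 1.64 CPM at day 1, and those labelled WT had 17.33, 13.09, 17.75 and 12.15 CPM. Every KO3 library of day 1 was above every WT library (1.11 higher on the log2 scale, p = 0.0286, exact two-sided permutation test, the smallest p that 4 against 4 libraries allow). In 2iL the order followed the labels, with 102.77, 135.62 and 165.62 CPM in KO3, 51.99, 55.19 and 56.7 CPM in KO2 and 434.35, 380.79 and 308.95 CPM in WT. The deleted part of the gene is not given, and a 3′ tag outside it checks nothing. KO3, KO2 and WT are therefore used as the labels of the libraries, and no difference between them is given as an effect of the loss of Esrrb.

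Over the whole transcriptome, 2791 of 16967 genes tested (16.4%) were called at day 5 against day 1, with a change of at least 1.5-fold and a p below 0.05 after Benjamini-Hochberg adjustment. Of these, 1744 (10.3%) were higher and 1047 (6.17%) were lower. The split depended on scaling, and quantile normalization gave 1349 higher and 1270 lower genes. The median change of all genes tested was 0.07 (log2). Changes of at least 8-fold were found for 24 genes that rose and 46 that fell. In 83 genes that fell, both day 5 libraries were at 0. The day 5 and day 1 libraries did not overlap in 7730 genes tested (45.6%), and in 2751 of the 2791 called. A lack of overlap, where given for a called gene, therefore adds little to its call. All changes are on the log2(CPM + 1) scale, which understates the change of genes with few reads.

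Most of the change was under way by day 3. Of the 1744 genes that rose, 1513 had a day 3 mean between the day 1 and day 5 means, and of the 1047 that fell, 915 did. The median gene that rose had covered 63.8% of its log2 change by day 3, and the median gene that fell 56.5%. Between day 3 and day 1, 1300 genes (7.66%) were called, 861 of them (5.07% of those tested) higher. Between day 5 and day 3 only 185 (1.09%) passed the same test with 2 libraries on each side, and 136 of those were lower at day 5.

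Most naive pluripotency genes were lower at day 5. Of 26 measured members, 15 fell and 1 rose, with a median change of −1.02 against 0.07 over all genes. Their summed level was 335 and 281 CPM at day 5, against 1055 to 1121 CPM at day 1. The number that fell was 11 to 16 over the alternative settings.

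Apart from Esrrb, the 4 members with the largest falls were developmental pluripotency-associated genes. Dppa5a, an RNA-binding protein gene of pluripotent cells, had 2.17 and 1.36 CPM at day 5, against 134.72, 152.67, 130.9 and 152.67 CPM at day 1. The groups were far apart, and the change was −5.71 ± 0.24 (adjusted p = 5.82e-22, limma). Dppa3, a maternal factor that protects methylation marks in the zygote, was at 0 in both day 5 libraries, against 39.18, 42.65, 42.42 and 42.01 CPM at day 1. Against a floor of 3 reads per library it was at least 59.2-fold lower (adjusted p = 4.82e-10). Dppa2 and Dppa4, partner proteins that bind early embryonic promoters, fell as well. Dppa4 averaged 25.2 CPM at day 5 and 295 CPM at day 1 (−3.50), and Dppa2 averaged 2.60 CPM at day 5 and 42.6 CPM at day 1 (−3.63).

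Transcription factors of the naive network behaved unevenly. Zfp42 (Rex1), the classical reporter gene of naive cells, had 2.42 and 3.17 CPM at day 5, against 16.98, 19.9, 22.5 and 21 CPM at day 1 (−2.48 ± 0.32, adjusted p = 1.07e-07, limma). Klf2 fell by 1.16 and Tfcp2l1 by 0.79 on the log2 scale. Klf4, a Krüppel-like factor downstream of LIF, went the other way, with 16.91 and 11.55 CPM at day 5 against 6.53, 6.34, 6.86 and 5.65 CPM at day 1. Both day 5 libraries were above every day 1 library (1.03 ± 0.30, adjusted p = 0.0107), although the call was lost without day 5 library 1. Nanog did not pass the test: it had 30.19 and 27.4 CPM at day 5 against 28.95, 27.12, 31.28 and 32.29 CPM at day 1, with overlapping groups (−0.05 ± 0.21, adjusted p = 0.905). Klf5 also missed it (−0.44, adjusted p = 0.0835).

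**Figure D1:**
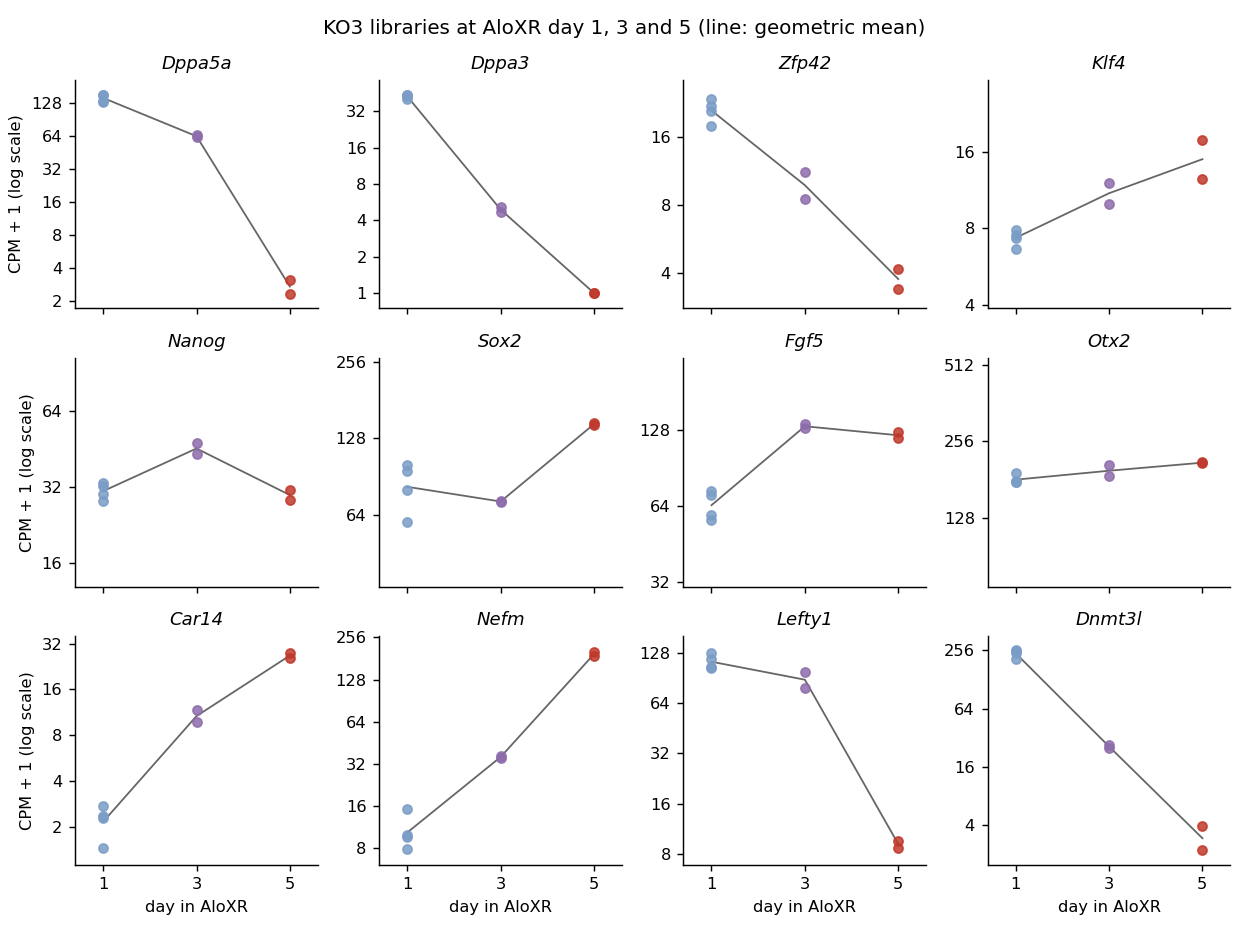
Levels of 12 genes in each KO3 library (points, CPM + 1 on a log axis) at days 1, 3 and 5 of AloXR, with lines through the geometric means. Dppa5a, Dppa3, Zfp42, Dnmt3l and Lefty1 end below their day 1 level, Nefm and Car14 end above it, and Nanog and Otx2 show overlapping or near levels at days 1 and 5.

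Of 13 measured core pluripotency genes, which are shared by naive and later pluripotent states, 3 rose and none fell by limma, at a median of 0.28. At an unadjusted p under 0.05 there were 2 lower members, edgeR called 1 of them, and the count that fell was 0 to 2 over the scaling alternatives. Lin28b, which blocks let-7 maturation, averaged 69.9 CPM at day 5 and 32.95 CPM at day 1 (1.07 ± 0.18, adjusted p = 2.03e-05, limma). Sall4, a zinc finger factor, rose by 0.94. Sox2 had 142.99 and 146.52 CPM at day 5 against 94.24, 99.74, 79.06 and 58.94 CPM at day 1, with no overlap (0.82 ± 0.29, adjusted p = 0.0435). That call was lost in 9 of the alternative settings. Pou5f1 (Oct4) had 19.81 and 15.4 CPM at day 5 and 12.19, 11.15, 16.5 and 12.87 CPM at day 1, which overlapped and did not pass (0.40, adjusted p = 0.262).

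Among 26 measured formative genes 10 rose and 4 fell, with a median of 0.58. Fgf5, a secreted ligand switched on after implantation, had 72.04, 69.77, 58.06 and 55.1 CPM at day 1, 133.25 and 128.45 CPM at day 3 and 117.14 and 123.87 CPM at day 5. All later libraries were above those of day 1, and day 5 against day 1 gave 0.92 ± 0.17 (adjusted p = 4.62e-05, limma). Car14, a membrane carbonic anhydrase, was among the largest rises, with 24.64 and 26.95 CPM at day 5 against 1.74, 0.44, 1.29 and 1.36 CPM at day 1 (3.64 ± 0.22). The transcription factors Sox11 (1.44), Bcl11a (1.58) and Sox4 (0.93), the kinase Pim2 (1.58) and the intermediate filament gene Nes (1.59) rose too. Hes6, an inhibitor of the Notch target Hes1, fell to 81.4 CPM at day 5, against 375 CPM at day 1 (means). The defining factors Otx2 (0.22, adjusted p = 0.591) and Pou3f1 (0.49, adjusted p = 0.116) were high throughout and did not pass: Otx2 had 210.86 and 208.57 CPM at day 5 against 191.31, 176.95, 175.47 and 175.03 CPM at day 1.

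Of the de novo methylation machinery, the catalytically inactive cofactor Dnmt3l showed the largest fall in the transcriptome among genes of at least 5 CPM whose groups did not overlap. It had 254.43, 252.84, 206.74 and 240.52 CPM at day 1, 26.11 and 24.09 CPM at day 3 and 1.21 and 2.94 CPM at day 5, each day below the one before. Day 5 against day 1 gave −6.34 ± 0.44 (adjusted p = 9.37e-13, limma). The catalytic Dnmt3b averaged 1450 CPM at day 5 and 1322 CPM at day 1 and did not pass (adjusted p = 0.821). Dnmt3a (−0.37, adjusted p = 0.0339) missed the 1.5-fold minimum. Tet1, which oxidises methylcytosine, averaged 148 CPM at day 5 and 283 CPM at day 1 (−0.93), a call lost without day 5 library 2. The other 7 measured enzymes and cofactors of this list were not called.

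Germline genes whose promoters are kept silent by DNA methylation in somatic mouse cells fell together. Of 20 measured members 15 fell and none rose by limma (0 also at an unadjusted p under 0.05 and by edgeR), at a median of −1.99, and the summed level was 45.4 and 39.0 CPM at day 5, against 350, 325, 295 and 337 CPM at day 1. In the steps, 6 members (2.59% of all genes tested were lower) were called lower at day 3 than at day 1, and 8 (0.802% of all genes) lower at day 5 than at day 3. Tuba3a, a testis alpha-tubulin gene, had 0.48 and 0 CPM at day 5 against 31.99, 32.81, 24.42 and 26.87 CPM at day 1 (−4.61 ± 0.30, adjusted p = 1.95e-16, limma). Rpl10l, an autosomal retrocopy of the X-linked Rpl10 that serves meiotic cells, had 4.11 and 3.85 CPM at day 5 against 77.92, 72.4, 61.92 and 81.75 CPM at day 1 (−3.90 ± 0.27). Tex19.1, which restrains transposons in germ cells, had 11.11 and 11.1 CPM at day 5 against 122.97, 105.64, 92.34 and 105.92 CPM at day 1 (−3.15 ± 0.31). In each, every day 1 library was above every day 5 library. The RNA helicase gene Ddx4 (Vasa), the RNA-binding gene Dazl and the kinase gene Stk31 fell by 2.13, 2.13 and 2.61 on the log2 scale. Rpl10l and Tuba3a have near-identical copies elsewhere, so reads may be split in the counting and their levels are uncertain.

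The promoters of the germline members are shown because the E-box CACGTG has been described in methylation-sensitive germline promoters. In the RefSeq windows of GRCm38.p6 from 250 bases before to 50 after the annotated start, matched for 19 of the 20, this palindrome (the same on both strands) was present in 11 (57.9%). It was present in 10.1% of 11585 promoters of genes tested and in 7.24% of 27025 promoters in all. Of the 14 members with a window that fell, 8 held it (57.1%). Among members not called, Sycp3, Hormad1 and Brdt held it as well, and Tex101 and Dpep3 did not. The E-box was thus no more frequent among the members that fell than over the list. Below, the capitals mark the E-box in the windows of Stk31 (chr6:49395289-49395588, plus strand) and Ddx4 (chr13:112652261-112652560, minus strand). A match describes these letters and not a bound site.
Stk31: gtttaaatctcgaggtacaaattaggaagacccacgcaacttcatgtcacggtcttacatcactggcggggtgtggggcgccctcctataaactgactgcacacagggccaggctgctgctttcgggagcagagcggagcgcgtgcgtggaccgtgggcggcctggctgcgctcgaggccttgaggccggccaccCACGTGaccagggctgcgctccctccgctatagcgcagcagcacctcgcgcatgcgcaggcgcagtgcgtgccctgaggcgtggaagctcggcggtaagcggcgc
Ddx4: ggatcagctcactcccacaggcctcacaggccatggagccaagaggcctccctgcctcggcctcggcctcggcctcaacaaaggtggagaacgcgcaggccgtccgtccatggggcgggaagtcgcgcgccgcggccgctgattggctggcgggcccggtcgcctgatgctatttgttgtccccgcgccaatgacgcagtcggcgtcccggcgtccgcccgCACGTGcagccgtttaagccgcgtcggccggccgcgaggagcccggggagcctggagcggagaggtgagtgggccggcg

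Related germline groups moved in the same direction in part. Of 13 measured primordial germ cell genes 9 fell, with a median of −1.18, and 1 rose (Kit, the stem cell factor receptor, 1.02, a call lost in 9 of the alternative settings). Of the 9, 5 genes, Dppa3, Tfcp2l1, Ddx4, Dazl and Mael, also stand in the naive or germline lists. In the X-linked Rhox homeobox cluster, 4 of 8 measured members fell and 1 rose, but only 2 fell when either of the day 5 libraries was left out, and none rose without day 5 library 1. Rhox5 had 39.37 and 35.33 CPM at day 5 against 516.26, 531.27, 552.75 and 598.02 CPM at day 1, with widely separate groups (−3.84 ± 0.17, adjusted p = 1.73e-22, limma). Rhox6 and Rhox9 were not called (0.70, adjusted p = 0.458, and 0.85, adjusted p = 0.239). Other large falls with the same separation were seen for the meiotic gene Hsf2bp (−4.72), the male germline silencing factor Morc1 (−4.64), the Nodal-related ligand Gdf3 (−4.70) and the naive-cell long noncoding RNA Lncenc1 (−4.54). Ooep, an oocyte cortical protein gene, and Slfn9, a Schlafen family gene, were at 0 in both day 5 libraries, at least 27.6-fold and at least 27.9-fold lower than at day 1.

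Of 22 measured cholesterol biosynthesis genes 5 rose and none fell by limma (0 also at an unadjusted p under 0.05 and by edgeR), at a median of 0.25. Over all genes tested, 10.3% rose. The summed level of the list was 6239 and 6428 CPM at day 5, against 3462 to 3891 CPM at day 1. A large part of that difference was in Hmgcs1 alone, and most members were not called. Hmgcs1, which makes HMG-CoA at the head of the pathway, had 1773 and 2042 CPM at day 5 against 518, 521, 337 and 340 CPM at day 1 (2.18 ± 0.16, adjusted p = 9.22e-14, limma). Nsdhl, a demethylating sterol dehydrogenase, had 122.7 and 101.68 CPM at day 5 against 22.2, 24.72, 28.07 and 23.04 CPM at day 1 (2.15 ± 0.22). Neither gene's groups overlapped. The other called members were the demethylases Cyp51 (1.19) and Msmo1 (0.86) and the desaturase Sc5d (0.70).

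The CCAAT box, read as CCAAT or its reverse complement ATTGG, is shown for the cholesterol genes because NF-Y at that box works with sterol-responsive factors. It was found in 13 of the 14 members with a RefSeq window (92.9%), including the 5 that rose, and in 38.9% of the promoters of genes tested. It was also found in 8 of the 9 that were not called. The windows of Hmgcs1 (chr13:119690101-119690400, plus strand) and Nsdhl (chrX:72918271-72918570, plus strand) held 4 matches each, in capitals here.
Hmgcs1: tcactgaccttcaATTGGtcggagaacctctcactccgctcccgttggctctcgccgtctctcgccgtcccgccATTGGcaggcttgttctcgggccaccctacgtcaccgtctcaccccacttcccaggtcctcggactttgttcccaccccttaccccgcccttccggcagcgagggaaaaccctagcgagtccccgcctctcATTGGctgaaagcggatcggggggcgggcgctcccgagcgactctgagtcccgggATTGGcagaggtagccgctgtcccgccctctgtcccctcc
Nsdhl: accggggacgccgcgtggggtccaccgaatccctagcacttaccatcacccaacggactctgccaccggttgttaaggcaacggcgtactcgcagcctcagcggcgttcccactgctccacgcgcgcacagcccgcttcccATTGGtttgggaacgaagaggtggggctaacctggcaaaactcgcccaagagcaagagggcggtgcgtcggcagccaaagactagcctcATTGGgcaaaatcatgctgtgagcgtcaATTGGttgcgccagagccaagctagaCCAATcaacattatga

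Genes of the primitive endoderm, the extra-embryonic layer that lays down a basement membrane, were often higher at day 5. Of 21 measured primitive endoderm genes 11 rose and none fell by limma (2 lower at an unadjusted p under 0.05, 0 by edgeR), at a median of 0.79, and of 16 measured basement membrane genes 8 rose and 1 fell, at a median of 0.68. These counts of rises depended on single libraries: without day 5 library 1 they were 6 and 4, and without day 1 libraries 1 and 2 they were 7 and 5. They are also not separate, because Col4a1, Col4a2, Lama1, Lamb1, Lamc1 and Sparc rose and stand in both lists. The primitive endoderm genes Apoe (−0.95), Amn (−0.89) and Afp (−0.30) were lower without passing. Pdgfra, Dab2, Cubn, Ctsl, Ttr, Srgn and Serpinh1 were not called either. Sox17, an endoderm transcription factor, had 9.9 and 6.34 CPM at day 5 against 1.31, 1.09, 1.71 and 2.26 CPM at day 1, with no overlap (1.81 ± 0.30, adjusted p = 8.08e-06, limma). Col4a1, the main collagen chain of basement membranes, had 339.11 and 269.49 CPM at day 5 against 63.34, 58.84, 74.56 and 70.24 CPM at day 1 (2.17 ± 0.20). Its partner Col4a2 (2.22) and the laminin chains Lama1 (1.72), Lamb1 (0.79) and Lamc1 (0.64) rose with it. Gata6, a driver of primitive endoderm, had 13.04 and 15.85 CPM at day 5. At day 1 it had 2.83 and 2.41 CPM in libraries 1 and 2 and 8.57 and 8.58 CPM in libraries 3 and 4 (1.39 ± 0.42, adjusted p = 0.016), and the call was lost in 7 of the alternative settings. Gata4 rose too (1.30) but averaged only 3.53 CPM at day 5.

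The simple epithelial keratins Krt8 (2.11), Krt18 (1.97) and Krt19 (1.76) rose, and with the claudin Cldn7, the sorting adaptor Ap1m2 and Krt7 they made 6 of 18 measured epithelial genes. Krt18 had 69.86, 71.74, 94.91 and 94.85 CPM at day 1, 337.43 and 375.88 CPM at day 3 and 331.14 and 317.27 CPM at day 5 (adjusted p = 9.91e-07 for day 5 against day 1, limma), so that its higher level was in place by day 3. Of 20 measured mesenchymal genes 13 rose and none fell by limma (0 also at an unadjusted p under 0.05 and by edgeR), at a median of 1.14, and 7 rose without day 5 library 1. Acta2, smooth muscle actin, had 4.57, 4.16, 4.5 and 6.55 CPM at day 1, 61.28 and 59.85 CPM at day 3 and 63.28 and 70.2 CPM at day 5 (3.53 ± 0.27 for day 5 against day 1). The calponin Cnn1 (2.90), the annexins Anxa1 (1.99) and Anxa3 (1.63) and the tropomyosin Tpm1 (1.15) rose in the same way.

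Markers of other cell types were measured beside these groups. Over all genes tested, 10.3% rose and 6.17% fell. Of 9 measured fibroblast and feeder genes 5 rose by limma, but 1 did so without day 5 library 1 or with a pseudocount of 5 CPM, and 3 by edgeR, without day 5 library 2 or without day 1 libraries 1 and 2. The sum of the 9 genes was 53.9 and 55.0 CPM at day 5 against 28.5 to 38.3 CPM at day 1. Dcn, a small proteoglycan gene, had the largest change among them (13.53 and 17.44 CPM at day 5 against at most 1.13 CPM at day 1). Of 9 measured haematopoietic genes 2 rose and 1 fell. Of 23 measured trophoblast genes 5 rose, 4 of them keratins, and 2 fell. Of 18 measured mesendoderm genes 4 rose (Sox17, Gata4, Gata6 and Wnt3) and 1 fell, but 1 rose without day 5 library 1 and none fell without day 5 library 2. The primitive streak factor T stayed at 1.45 and 0.91 CPM at day 5, and Eomes averaged 23.9 CPM at day 5 and 11.4 CPM at day 1 without passing (adjusted p = 0.17). Of 14 measured neuroectoderm genes 4 rose, of which Pax6, Hes5 and Six3 averaged under 3 CPM at day 5. Of 9 measured two-cell-like genes 2 fell, both averaging under 2 CPM at day 1. Without day 5 library 1, 1 haematopoietic and 2 neuroectoderm genes rose and no two-cell-like gene fell, and without day 5 library 2, 1 trophoblast and no two-cell-like gene fell. The part of such cells in the rises of basement membrane and mesenchymal genes was not tested.

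**Figure D2:**
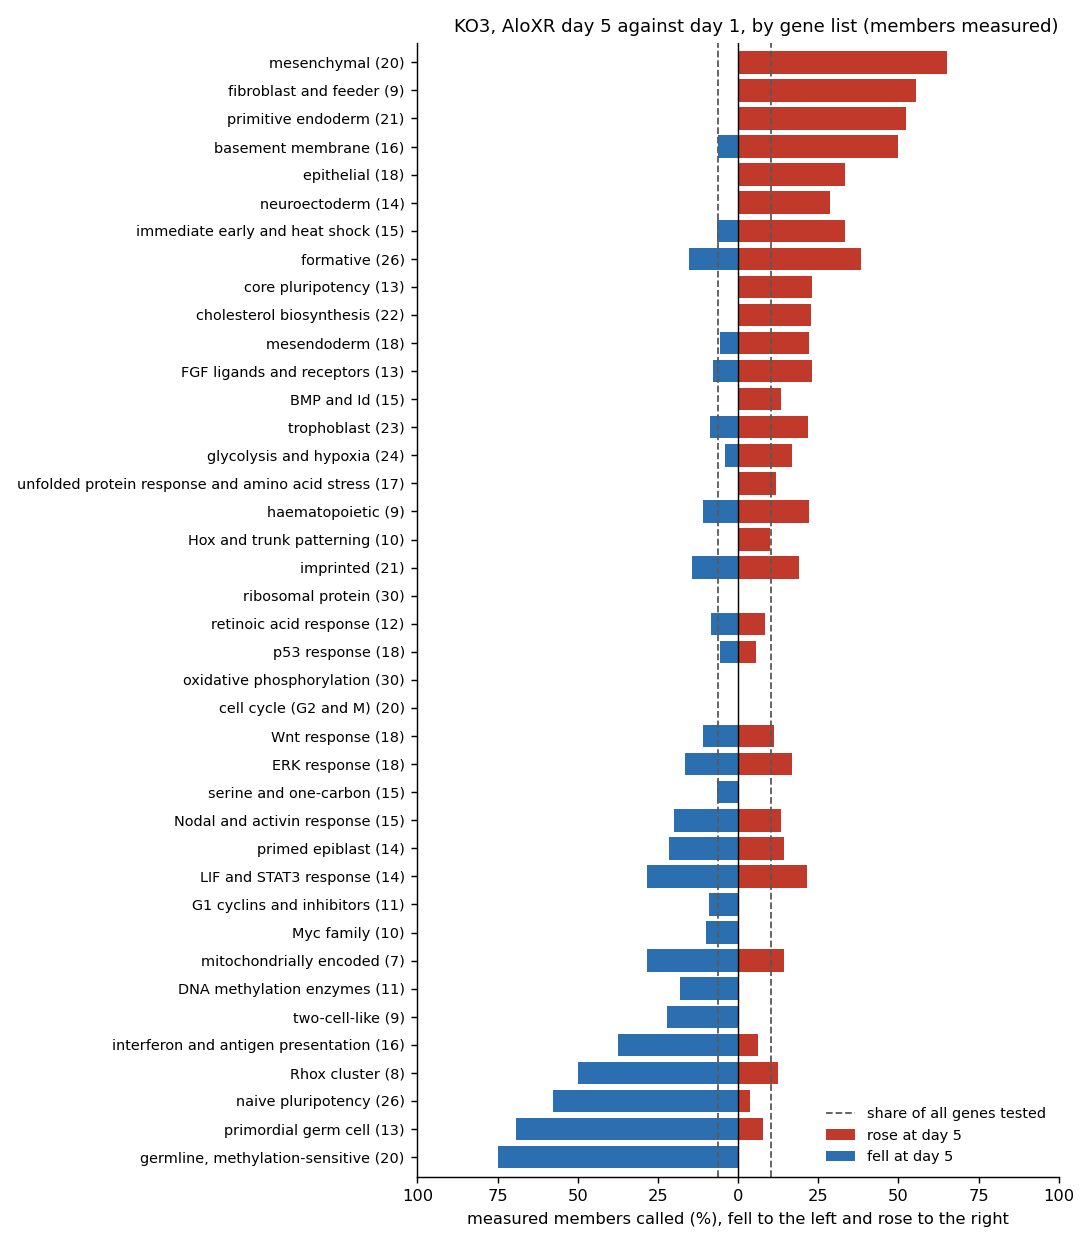
Share (%) of the measured members of each gene list that fell (left, blue) or rose (right, red) in KO3 at day 5 against day 1, with dashed lines at the shares over all genes tested (6.17% fell, 10.3% rose). Germline, primordial germ cell and naive lists reach furthest left, and mesenchymal, fibroblast, primitive endoderm and basement membrane lists furthest right.

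Signalling lists held both rises and falls. Their counts stand beside 10.3% of all genes tested that rose and 6.17% that fell. In the Nodal list, Lefty1, a secreted Nodal inhibitor, had 104.91, 117.45, 102.62 and 126.47 CPM at day 1, 78.34 and 97.8 CPM at day 3 and 7.73 and 8.61 CPM at day 5, so that most of the loss came after day 3. Day 5 against day 1 gave −3.63 ± 0.49 (adjusted p = 1.53e-06, limma). Lefty2 (−3.42) and the Nodal coreceptor gene Tdgf1 (−1.77) fell as well, and the activin target Pmepa1 rose (1.16), so that 2 of 15 measured members rose and 3 fell. Nodal itself did not pass (−0.67, adjusted p = 0.181). In the ERK response list, 3 of 18 measured members rose and 3 fell. Egr1, an immediate early factor, had 57.73 and 55.48 CPM at day 5 against 7.84, 7.0, 6.0 and 5.19 CPM at day 1 (2.95 ± 0.64), and the receptor feedback inhibitor Spry2 rose by 1.28. The ERK phosphatase Dusp4 had 22.7 and 26.5 CPM at day 5 against 129.4 to 145.39 CPM at day 1 (−2.44), and Etv4 and Etv5 fell by 1.01 and 0.70 on the log2 scale. Without day 5 library 1 the call of Dusp4 was lost and 1 member of the ERK list fell. Of 13 measured FGF ligands and receptors, Fgf4, the ligand of naive cells, fell by 1.31 on the log2 scale, and Fgf5, Fgf13 and Fgf3 rose. Without day 1 libraries 1 and 2 the calls of Fgf13 and Fgf3 were lost, and without day 5 library 2 only 1 member of the Nodal list rose.

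Smaller groups were mixed, beside 10.3% of all genes tested that rose and 6.17% that fell. Of 14 measured primed epiblast genes 2 rose (Krt8 and Krt18) and 3 fell (Lefty1, Lefty2 and Tdgf1). In the LIF and STAT3 list 3 of 14 measured members rose (Klf4, the receptor subunit Il6st and Junb) and 4 fell (Pim1, Gbx2, Tfcp2l1 and Stat3), but without day 5 library 1 only 1 rose and 2 fell, and without day 5 library 2 only 2 fell. In the Wnt list 2 of 18 rose and 2 fell, and none fell without day 5 library 2 or without day 1 libraries 1 and 2, with the feedback gene Axin2 at 1.69 and 1.36 CPM at day 5 against 3.61 to 8.92 CPM at day 1. In the BMP and Id list 2 of 15 rose, of which Id2, an inhibitor of helix-loop-helix factors, averaged 168 CPM at day 5 and 64.3 CPM at day 1. In the retinoic acid list 1 of 12 rose and 1 fell, and of 10 measured Hox and trunk genes only Meis2 rose (1.48). Of 16 measured interferon and antigen presentation genes 6 fell, at a median of −0.69, and 1 rose. Bst2 (tetherin) had 10.87 and 7.47 CPM at day 5 against 40.05, 31.28, 31.49 and 34.55 CPM at day 1 (−1.81 ± 0.29, adjusted p = 7.7e-06, limma), and Ifitm1 and Irf1 fell by 1.98 and 1.35 on the log2 scale. B2m, the light chain of MHC class I, rose by 1.16. Without day 5 library 1, 1 gene of the BMP list rose and 1 of the Wnt list fell. Without day 5 library 2, 1 gene of the Wnt list and none of the retinoic acid list rose.

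Among housekeeping programmes, limma called 0 of 30 nuclear oxidative phosphorylation subunits, 0 of 30 ribosomal protein genes and 0 of 20 G2 and M phase genes in either direction. At an unadjusted p under 0.05, 3 oxidative phosphorylation genes were higher and 3 lower, 1 ribosomal gene was higher and 14 lower, and 3 G2 and M genes were lower. By edgeR, 2 oxidative phosphorylation genes, 0 ribosomal genes and 1 G2 and M gene were called lower and none higher. The ribosomal genes had a median of −0.23 against 0.07 over all genes. Mitochondrially encoded transcripts took 3.43% and 3.31% of reads at day 5 against 4.02% to 4.63% at day 1, and of 7 measured 2 fell (mt-Nd5 and mt-Co1) and 1 rose. Of 24 measured glycolysis and hypoxia genes 4 rose and 1 fell (10.3% rose and 6.17% fell over all genes tested). Slc2a3, a high-affinity glucose transporter, had 120.53 and 129.31 CPM at day 5 against 14.58, 19.47, 49.28 and 53.52 CPM at day 1, and its call was lost without day 1 libraries 1 and 2. Threonine dehydrogenase Tdh, a metabolic enzyme of naive mouse cells, was the sole member called among 15 serine and one-carbon genes (−1.86). Of 18 measured p53 response genes 1 rose and 1 fell, and of 17 unfolded protein and amino acid stress genes 2 rose (Atf3 and Ddit3). Of 15 measured immediate early and heat shock genes 5 rose and 1 fell, led by Egr1 and the small chaperone Cryab (2.35). Of 11 measured G1 cyclins and inhibitors 1 fell (Cdkn1c), and of 10 Myc family genes 1 fell (the Max partner Mxd3, −1.55). Several of these small counts rested on single libraries. With either of the day 5 libraries left out, 3 immediate early and heat shock genes rose and none fell, 1 mitochondrial gene fell and none rose, 1 stress gene rose, and no p53 gene rose. Without day 5 library 2 no p53, G1 or Myc family gene fell, and without day 1 libraries 1 and 2 only 2 glycolysis genes rose.

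Imprinted genes did not move as a set: 4 of 21 measured rose and 3 fell, or 1 without day 5 library 2. The shares over all genes tested were 10.3% and 6.17%. Some paternally expressed genes of the Prader-Willi region on chromosome 7 rose. Magel2, a ubiquitin ligase partner (chr7:62377010-62381640 in GRCm38), had 1.74, 2.62, 1.93 and 3.39 CPM at day 1, 13.37 and 14.84 CPM at day 3 and 57.73 and 47.78 CPM at day 5, a rise over both steps (3.99 ± 0.39 for day 5 against day 1, adjusted p = 2.06e-10, limma). Its neighbour Ndn had 28.5 and 25.14 CPM at day 5 against 9.58, 10.72, 7.93 and 6.1 CPM at day 1 (1.56 ± 0.25). Snrpn, a splicing protein gene, had 571.47 and 493.46 CPM at day 5 against 234.62, 201.88, 209.1 and 229.23 CPM at day 1 (1.28 ± 0.11). None of the 3 had overlapping groups. The region's noncoding host transcript Snhg14, singled out after its values were seen, rose by 1.30, while Mkrn3 (0.63, adjusted p = 0.0601), Peg12 (−0.47, adjusted p = 0.359), Ube3a (0.24) and the flanking Herc2 were not called, and Snurf was at 0 in all 8 libraries. The strand setting of the counting is not given in the sources used here, so reads of Snhg14 and of the overlapping, oppositely transcribed Ube3a cannot be told apart. The neuronal gene Nnat rose by 1.86, and the growth restraining Cdkn1c and Phlda2 fell by 1.27 and 1.97 on the log2 scale.

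Among the 15 largest rises were cytoskeletal and surface genes. Nefm, a neurofilament subunit, had 6.96, 14.22, 9.0 and 8.58 CPM at day 1, 35.57 and 34.3 CPM at day 3 and 199.99 and 188.19 CPM at day 5 (4.23 ± 0.29 for day 5 against day 1, adjusted p = 7.72e-15, limma). The potassium channel gene Kcnj3 averaged 74.8 CPM at day 5 and 4.81 CPM at day 1 (3.74 ± 0.26). The growth factor Tgfb2 (3.68), the integrin Itgb8 that activates such factors (3.76), the serine protease Prss23 (3.58) and the protocadherin Pcdh17 (3.51) followed, each with no overlap.

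Skeletal muscle genes formed a distinct set among these rises. Myh4, a fast myosin heavy chain, had 31.64 and 64.77 CPM at day 5 against 0.22, 0, 0 and 0.68 CPM at day 1 (5.28 ± 0.94, adjusted p = 0.000108, limma), and the calcium pump Atp2a1, the troponin Tnnt3 and the junctional protein Trdn behaved alike. The 2 day 5 libraries differed in level: in a list of 22 structural muscle genes gathered after these values were seen, 14 rose, and 18 were higher in day 5 library 2 than in library 1. The regulators Myod1, Myog, Myf5 and Pax7 reached at most 0.23 CPM at day 5. The summed level of Myh4, Atp2a1, Tnnt3 and Trdn was 58.2 and 132 CPM at day 5 and 0.43 to 1.58 CPM at day 1. It was also high in KO3 cells in 2iL (105 to 603 CPM), and in KO2 and WT libraries of the same media. It reached up to 147 CPM in KO2 and 100 CPM in WT at day 5, although 1 KO2 library of day 5 had 1.59 CPM. What these transcripts come from was not tested.

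**Figure D3:**
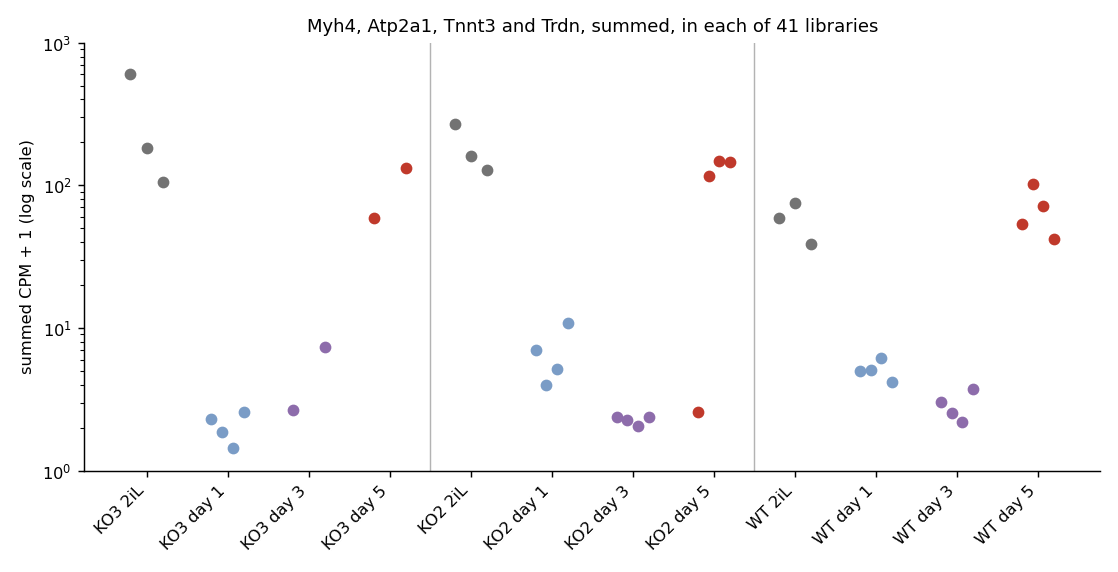
Summed level of Myh4, Atp2a1, Tnnt3 and Trdn (CPM + 1, log axis) in each of the 41 libraries, by line and by 2iL, day 1, day 3 and day 5. The KO3 sum is high in 2iL and at day 5 and low at days 1 and 3, and KO2 and WT show the same pattern except for 1 low KO2 library at day 5.

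The change in the libraries labelled KO3 was then set against the change over the same days in those labelled KO2 and WT, with which it shares no library. At day 5 against day 1, KO2 had 3267 called genes (19.3%, with 11.4% higher and 7.89% lower) and WT 5515 (32.5%, with 20.4% higher and 12.1% lower), with 4 libraries on each side in place of 2 against 4. Of the genes that rose in KO3, 903 also rose in KO2 (51.8% of the KO3 genes, 46.8% of the KO2 genes) and 1045 in WT (59.9% and 30.2%). Of those that fell in KO3, 602 also fell in KO2 (57.5% and 44.99%) and 662 in WT (63.2% and 32.2%). Of the genes that rose in KO3, 14 fell in KO2 and 42 in WT, and of those that fell in KO3, 6 rose in KO2 and 35 in WT. Across genes, which are not independent replicates, the KO3 change correlated with that of KO2 at r = 0.66 and with that of WT at r = 0.62. The difference of the changes was called for 524 genes against KO2 (3.09%) and for 2175 genes against WT (12.8%).

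**Figure D4:**
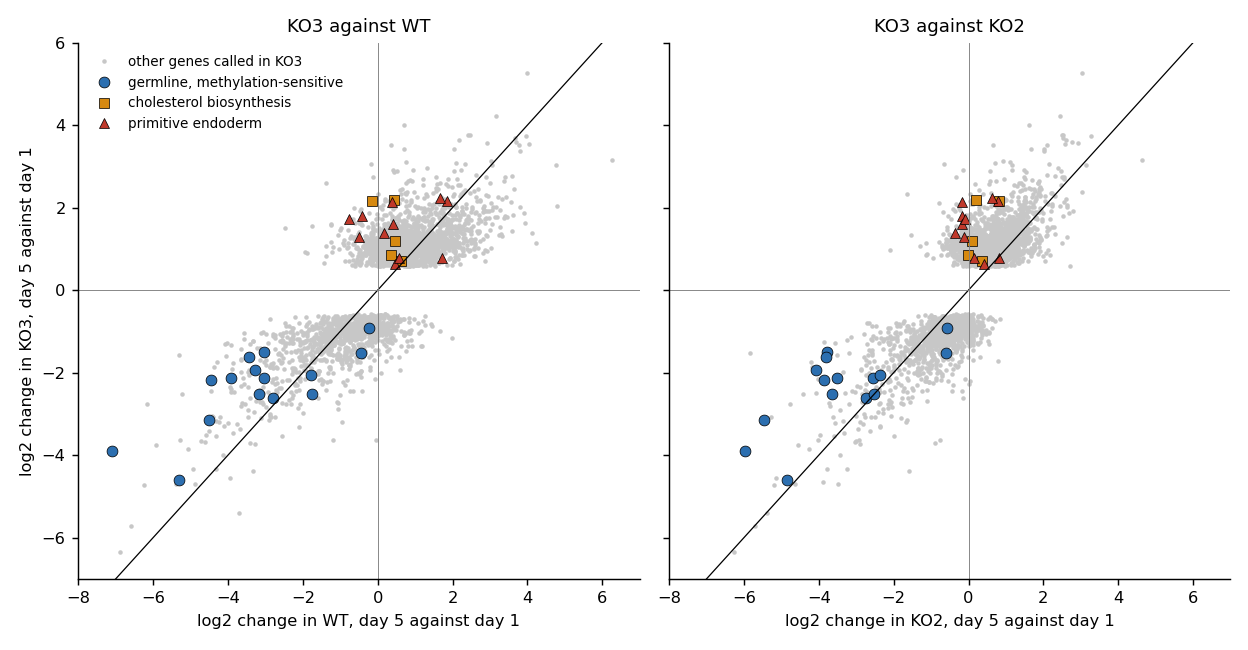
Log2 change from day 1 to day 5 in KO3 (vertical axis) against that in KO2 and in WT (horizontal axes) for the 2791 genes called in KO3, with called members of the germline, cholesterol and primitive endoderm lists coloured and a line of equality. Cholesterol and primitive endoderm members lie mostly above the line, and most germline members lie above it on the side of falls.

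Several cholesterol and endoderm genes rose more in KO3 than in either other line. For Hmgcs1 the day 5 level was 1773 and 2042 CPM in KO3, 485 to 764 CPM in KO2 and 881 to 1054 CPM in WT. The day 1 level was 337 to 521 CPM in KO3, 464 to 567 CPM in KO2 and 676 to 731 CPM in WT. The change in KO3 exceeded that in KO2 by 1.99 ± 0.21 (adjusted p = 3.25e-08, limma) and that in WT by 1.75 ± 0.21 (adjusted p = 2.02e-07). Nsdhl exceeded KO2 by 1.32 ± 0.28 and WT by 2.30 ± 0.28. At day 5 it had 122.7 and 101.68 CPM in KO3, and 36.43, 46.61, 85.05 and 87.52 CPM in KO2. The KO2 libraries of day 5 thus differed among themselves. Hmgcs1 and Cyp51 were also lower in KO2 libraries 1 and 2 of that day than in libraries 3 and 4. In all, 4 of the 22 cholesterol genes differed from KO2 and 3 from WT in this direction (2.02% and 5.96% of all genes tested). Sox17 was at 0.45 CPM or less in KO2 and WT libraries of day 5, and its change in KO3 exceeded that in KO2 by 1.99 ± 0.38 (adjusted p = 0.00122) and that in WT by 2.24 ± 0.38 (adjusted p = 6.01e-05). Lama1 differed in the same way (1.82 ± 0.47 over KO2, 2.48 ± 0.47 over WT). At day 1 Lama1 already had 5.57 to 11.75 CPM in KO3, against 0.55 to 1.61 in KO2 and 1.92 to 2.89 in WT. Sox17 then had 1.09 to 2.26 CPM in KO3, and at most 0.82 CPM in KO2 and 0.83 CPM in WT. Both genes thus started higher in KO3. Col4a1 differed from KO2 (1.39 ± 0.26) while its difference from WT was 0.32. Of the 21 primitive endoderm genes, 8 changed more upward than in KO2 and none less. Against WT, 5 changed more upward and 4 less. The sum of these genes went from 1218 to 1288 CPM at day 1 to 1999 to 2211 CPM at day 5 in KO3. In WT it went from 574.85 to 599.57 CPM to 1178 to 1506 CPM, and in KO2 from 808.07 to 1050 CPM to 1156 to 1329 CPM. As a fold change of the sum, the list thus did not rise more in KO3 than in WT. Of the 16 basement membrane genes, 3 changed more upward and 4 less against WT, with 4 and 0 against KO2.

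Several germline genes fell less in KO3. Rpl10l had 4.11 and 3.85 CPM in KO3 at day 5, 0.67 to 0.95 CPM in KO2 and 0 to 0.45 CPM in WT. Its day 1 levels were 61.92 to 81.75 CPM in KO3, 104.34 to 122.75 CPM in KO2 and 144.72 to 173.94 CPM in WT, and its fall was smaller in KO3 than in KO2 by 2.08 ± 0.35 (adjusted p = 0.000196, limma) and than in WT by 3.20 ± 0.35 (adjusted p = 1.94e-08). Of the 20 germline genes, 7 had a difference of change above 0 called against KO2 and 7 against WT, with none below 0 against KO2 and 1 against WT (6.85% of all genes tested). The counts of Rpl10l are uncertain, as given above. The sum of the 20 genes at day 5 was 38.95 to 45.41 CPM in KO3 and 38.07 to 57.15 CPM in KO2. It was 100.25 to 109.5 CPM in WT. The day 1 sums were 295.23 to 350.2 CPM in KO3, 609.52 to 785.46 in KO2 and 441.63 to 496.66 in WT. As a sum, the list thus did not fall less in KO3 than in WT. The median change of its members went the other way, at −1.99 in KO3, −2.65 in KO2 and −3.03 in WT. In WT 2 members rose and 14 fell. The day 1 start differed between lines as well: Tex19.1 had 92.34 to 122.97 CPM in KO3, 245 to 387 CPM in KO2 and 64.8 to 77.05 CPM in WT. Rhox6 had 41.54 and 38.5 CPM in KO3 at day 5, 0.18 to 9.56 CPM in KO2 and 0 to 2.05 CPM in WT, a difference of change of 4.22 against KO2 (adjusted p = 0.00117) and 2.89 against WT (adjusted p = 0.00991). Rhox9 followed it.

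For pluripotency and formative genes, more differences were called against WT than against KO2, as over all genes tested (12.8% and 3.09%). By direction, 5.96% of all genes tested were above 0 and 6.85% below against WT, with 2.02% and 1.07% against KO2. Nanog, which did not pass in KO3, rose in WT by 2.24, and the difference of −2.29 ± 0.27 (adjusted p = 7.92e-08, limma) was called, while the difference from KO2 was −0.24. Fgf4 fell less in KO3 than in WT (2.76 ± 0.27, adjusted p = 8.28e-10), and its difference from KO2 was −0.62 (adjusted p = 0.233). Of 26 naive genes 9 had a difference above 0 and 1 below 0 against WT, with 2 and 2 against KO2. Of 26 formative genes 13 were above 0 and none below against WT, with 4 and 1 against KO2. Those against WT included Fgf5 (1.20), Pou3f1 (1.68) and Car14 (1.47). Of 18 genes of the ERK response list, 7 were above 0 against WT, with Spry2 at 2.00, and 1 was below 0 against KO2. Klf4 differed from both lines: 16.91 and 11.55 CPM in KO3 at day 5 stood against 1.42 to 3.37 CPM in KO2 and 2.62 to 3.18 CPM in WT, with differences of change of 1.62 ± 0.39 (adjusted p = 0.0117) and 1.37 ± 0.39 (adjusted p = 0.0129).

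Single genes stood further apart. Glipr1, a secreted CAP family protein gene, had 13.77 and 11.32 CPM in KO3 at day 5 and at most 0.89 CPM in KO2 and WT, with differences of change of 3.72 and 3.24. Magel2 differed from KO2 by 2.38 ± 0.50 and from WT by 3.30 ± 0.50, although its day 5 level in KO2, 21.4 to 77.7 CPM, overlapped that in KO3. The lower start in KO3, 1.74 to 3.39 CPM at day 1 against 10.36 to 21.66 CPM in KO2, enters that difference. Snrpn differed from WT (1.07 ± 0.14, adjusted p = 8.57e-07), and its difference from KO2 was 0.44 (adjusted p = 0.0768). Aass, which degrades lysine, had 1.69 and 0 CPM in KO3 at day 5 and 11.97, 14.0, 26.78 and 31.62 CPM at day 1. Its change was lower than in KO2 by −2.87 and in WT by −3.60. At day 5 Aass had 0.89 to 2.84 CPM in KO2 and 2.58 to 5.02 CPM in WT. At day 1 it had 2.01 to 6.21 CPM in KO2 and 2.63 to 5.36 CPM in WT. The higher start of Aass in KO3 enters both differences. Slc39a8, a zinc and manganese importer, rose less in KO3, at 31.4 and 26.27 CPM at day 5 against 72.87 to 93.13 CPM in KO2 and 92.98 to 172.33 CPM in WT. Esrrb itself, with its higher day 1 level in KO3, fell more there than in KO2 (−2.78 ± 0.43, adjusted p = 4.45e-05, limma), and its difference from WT was −1.05 (adjusted p = 0.0948).

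**Figure D5:**
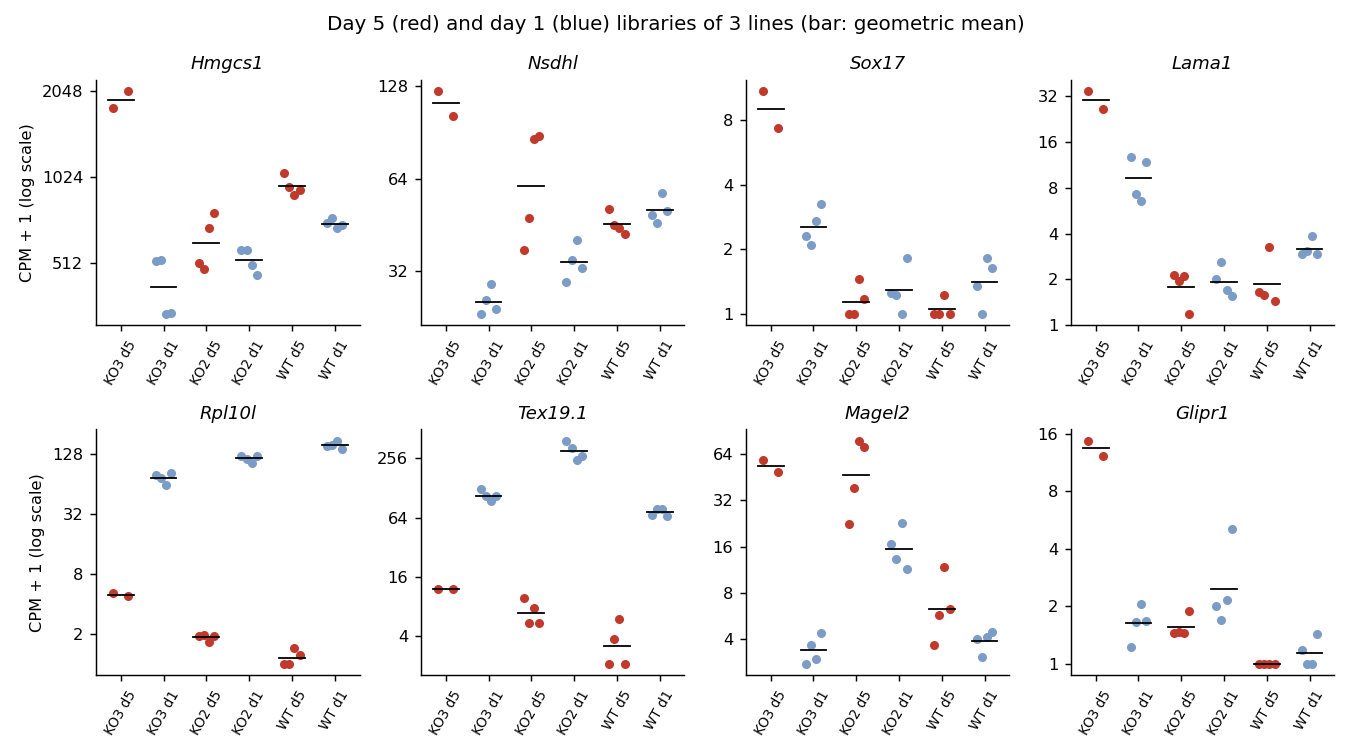
Levels of 8 genes (CPM + 1, log axis) in KO3, KO2 and WT at day 5 (red) and day 1 (blue), with a point per library and a bar at the geometric mean. Hmgcs1, Nsdhl, Sox17, Lama1 and Glipr1 are highest in the KO3 libraries of day 5, Rpl10l keeps a higher day 5 level in KO3, Tex19.1 starts highest in KO2, and Magel2 overlaps between KO3 and KO2 at day 5.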

How the data were processed

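The submitters' processing notes name the genome build GRCm38, the aligner STAR 2.7.6a and the counter featureCounts 2.0.1 (Subread). Deposited values are CPM for 55487 genes in 41 libraries, and each column sums to 1000000. The smallest step of a column is 1 read: 100% of 766190 values above 0 were whole within 0.01 reads, which gave the depths.

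Genes reaching 1 CPM in 3 or more libraries (16967) entered the fit as log2(CPM + 1). limma 3.58.1 in R 4.3.3 fitted 1 mean per line and day over all 41 libraries in 12 groups (29 residual degrees of freedom), with trend and robust empirical Bayes moderation. Differences of change between lines were interaction contrasts. p-values were adjusted over all genes tested. edgeR 4.0.16 (quasi-likelihood) on the recovered reads was an alternative. The fits were also run on simulated reads, with the same extra spread for every gene and few genes changed. That setting is simpler than these data and holds no library pairs, so it says nothing of false calls here.

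The comparison, the gene lists and the promoter sets were chosen with earlier results of these data known. Genes named in the text are 22 reference genes, the 4 called members of each list that changed most, the 15 rises and 15 falls of greatest size without overlap, and the 8 greatest differences in each direction from WT and from KO2, the last sets at a mean of at least 5 CPM in KO3. Other members are named only to account for a list's count, and others outside the rule were chosen after their values were seen. Replicate numbers follow accession order and pair nothing.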

Additional observations from a re-analysis of the deposited data

Results flagged for a closer look

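Within the 4 KO3 day 1 libraries, Dixon's ratio of gap to range passed its limit in 7 of 150 named genes screened. Chance flags about 1 in 20 groups, so the count is close to what chance gives. The ratio was 0.992 for Pou3f1, 0.949 for Atp2a1, 0.942 for Ifitm1, 0.888 for Ddit3, 0.882 for Otx2, 0.865 for Nexmif and 0.851 for Pdk1. The ratio says nothing of size: Pou3f1 had 375.76 CPM in library 2 against 367.82 to 367.89 CPM in the others, and Atp2a1 had 0 CPM against 0.21 to 0.23 CPM.

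The change from day 1 to day 5 differed between KO3 and WT for genes named as the largest differences (log2, KO3 minus WT, interaction contrast). Above 0 these were Upp1 (3.97), Slc35d3 (3.95), Lifr (3.90), Nexmif (3.87), Trh (3.83), Sgk1 (3.72), Rpl39l (3.39) and Cx3cl1 (3.31). Of these, Slc35d3, a nucleotide sugar transporter family gene, had 58.93 and 57.29 CPM in KO3 at day 5 against 8.09 to 9.79 CPM at day 1, a change of 2.59, with −1.37 in WT. Below 0 they were Aass (−3.60), Gadd45b (−3.39), Fgfr2 (−3.14), Ccn2 (−3.13), Slc39a8 (−3.11), Sema3c (−3.09), Ccnd2 (−2.75) and Slc2a3 (−2.74). Slc2a3 and Ccnd2 also split the KO3 day 1 libraries into pairs.

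Between KO3 and KO2 the largest differences above 0 were Gm21761 (4.31), Rhox6 (4.22), Rhox9 (4.21), Sct (3.97), Glipr1 (3.72), Pga5 (3.10), Tmem140 (3.04) and Adgrg6 (2.91). Sct, the secretin gene, had 35.51 and 36.23 CPM in KO3 at day 5 against 5.03 to 8.36 CPM at day 1, and 0.22 to 7.51 CPM in KO2 at day 5. Below 0 they were Aass (−2.87), Pla2g1b (−2.79), Esrrb (−2.78), Urah (−2.45), Vegfc (−2.30), Fgd5 (−2.25), Zbtb32 (−2.25) and Stmn2 (−2.11).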

How the results depend on the processing

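Of the 170 named genes under all alternatives, 2653 of 2858 values for KO3 day 5 against day 1 kept their side of the threshold. Of the rest, 199 lost the call, 6 gained it and 0 reversed. Differences of change between lines are not in this count, so it says nothing of how far those of single genes hold. Only a gene called in the main or the alternative fit could count as reversed. A change of sign in a gene called in neither was counted as kept. The 2791 genes called at day 5 against day 1 became 1759 with a pseudocount of 5 CPM, 1643 with a mean of at least 5 CPM, and 1703 to 2671 with 1 library left out, lowest without a day 5 library (1707 and 1703). For day 3 against day 1 (1300), the counts were 801 with that mean filter, 539 to 1237 with 1 library left out and 783 without day 1 libraries 1 and 2, chosen after seeing the data. For day 5 against day 3 (185), they were 283 with every gene above 0 CPM, 122 with the mean filter and 65 to 82 with 1 library left out. For KO3 minus WT (2175), they were 1107 to 2021 with 1 library left out and 1428 without day 1 libraries 1 and 2. For KO3 minus KO2 (524), they were 320 with a pseudocount of 0.25 CPM, 263 with the mean filter, 257 by edgeR, 193 to 514 with 1 library left out and 234 without day 1 libraries 1 and 2. Fewer genes or libraries enter the filtered and left-out fits, and the cause of the other differences was not tested. The calls of Hes5, Perp, Ddit3, Stmn2, Usp17lc, Rhox10, Zfp352, Sox2 and Fgf3 were lost most often (13 to 9 settings), and so was that of Kit (9), which is not among the 170. Without day 1 libraries 1 and 2, 19 of the 170 lost their call, among them Gata6, Krt7, Gbx2, Axin2, Fgf13, Fgf3, Bmp2, Phlda1, mt-Nd6, Pmaip1 and Slc2a3. No paired analysis was possible because the labels carry no replicate number that ties libraries across days. With 2 libraries at day 5, 1 line and 4110394 reads in the shallowest library, genes under about 1 CPM cannot be resolved.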

Other observations

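By chromosome, over genes with a mean of at least 10 CPM, the median change from day 1 to day 5 in KO3 was 0.21 (log2) on chromosome 14 (283 genes), against 0.11 in KO2 and 0.17 in WT. Each KO3 day 5 library gave 0.23 there against the day 1 mean. The other chromosomes lay between −0.05 (chromosome 6) and 0.11 (chromosome 3) in KO3. No test was made of these medians.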
